A study of Sus scrofa with 32 samples.

Results

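The testes compared here were selected on 1 transcript, PRM1, which encodes protamine 1. They are the 8 with the highest and the 8 with the lowest PRM1 level, 16 of the 32 pig testes sequenced, and the rule that chose them used no other gene. The 24 libraries with under 8000000 gene counts were taken, the 1 with the lowest PRM1 level (757.9 CPM, where CPM is the count of a gene scaled to the same total of gene counts in every library) was set aside, and the remaining 23 were ranked by PRM1 CPM. The 7 testes between the 8 highest and the 8 lowest are called the middle testes. The other 8 libraries of the series, whose names carry a sample number, were sequenced to 10585625 to 20349500 gene counts and stayed outside the ranking. They are called the numbered testes. The 23 ranked libraries held 2268778 to 5993637 gene counts.

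All pigs were Danish crossbred males, Duroc with Landrace/Yorkshire, slaughtered at a weight of about 100 kg. Some received feed with 15% chicory for the last 3 days and the others a control diet, and the labels place most pigs in a High AS or a Low AS group by androstenone and skatole, the compounds behind boar taint. The 8 PRM1-high testes came from 5 High AS and 3 Low AS pigs, 5 of them on chicory and 3 on the control diet. The 8 PRM1-low testes came from 4 High AS pigs, 3 Low AS pigs and 1 pig with no AS group, 3 of them on chicory and 5 on the control diet. The middle testes came from 2 High AS and 5 Low AS pigs, 3 of them on chicory. The numbered testes came from 6 High AS and 2 Low AS pigs, also 3 on chicory. Every library is a separate pig, but several pigs share a sow, and ages are not given in the sources used here.

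Protamines are small basic proteins that replace histones when the nucleus of an elongating spermatid condenses. Transition proteins TNP1 and TNP2 occupy the chromatin between the removal of histones and the deposition of protamines. Transcription stops as the nucleus compacts, so spermatids make these messenger RNAs early and store them for later translation. A testis rich in PRM1 transcript is therefore usually read as one rich in late germ cells. In RNA from whole testis, however, a larger number of spermatids and more PRM1 RNA in each spermatid cannot be told apart, and the same holds for every cell type named here.

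In the PRM1-high testes, PRM1 (ENSSSCG00000021337) stood between 13345 and 22542 CPM, with a median of 14265 CPM. In the PRM1-low testes it stood between 4852 and 9561 CPM, with a median of 8824 CPM. The lowest PRM1-high testis, a High AS pig on the control diet (replicate 10), had 13345 CPM and the highest middle testis, a Low AS pig on chicory (replicate 5), had 13086 CPM. At the lower limit, the highest PRM1-low testis had 9561 CPM and the lowest middle testis 10038 CPM. The steps at both limits were small against the range within each group. Within the PRM1-high group 1 pig, High AS on chicory (replicate 7), stood apart at 22542 CPM, with the next at 17062 CPM. These values chose the groups and are a description.

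The libraries carry 4 different first index sequences in their names, called index sets A to D here, with 8 libraries each. All 8 PRM1-high testes were in set A, and set A held no other library. The PRM1-low testes were 4 libraries of set B and 4 of set C, the middle testes 3 of set B and 4 of set C, and the numbered testes were the 8 of set D. The median PRM1 level was 14265 CPM in set A, 9453 CPM in set B, 10357 CPM in set C and 10415 CPM in set D. The PRM1-high and PRM1-low groups also had no sow in common (4 sows against 6). With scaling by TMM (trimmed mean of M values), the lowest set A library had 12951 CPM of PRM1. The highest middle testis then had 13522 CPM and the highest numbered testis 13158 CPM. Ranked in that way, 7 of the 8 highest testes were of set A. By total gene counts, which chose the groups, every set A library had more PRM1 than every library of the other sets. The same order within the 4 sows with offspring both in set A and in another set follows from this and is not separate evidence. A difference between the PRM1-high and PRM1-low testes and a difference between index set A and sets B and C thus cannot be told apart. For this reason the lists are also described in 3 other ways. These are the middle against the PRM1-low testes, both of which hold only sets B and C; the slope of each gene on PRM1 over the 23 ranked testes with index set as a term; and the slope in the numbered testes, which the ranking did not use. The comparison of middle with PRM1-low testes and the slopes over the ranked testes rest on the same ranking and share its libraries. They describe the lists and are not separate evidence. A slope is the log2 change of a gene per log2 unit of PRM1.

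**Figure D1:**
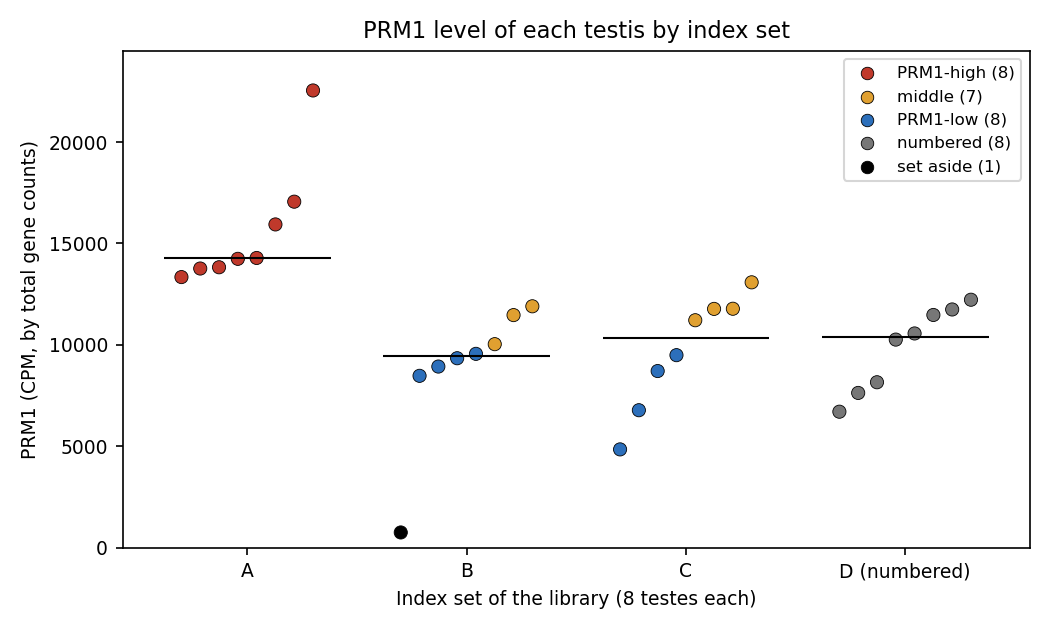
PRM1 level of each testis (vertical axis, CPM by total gene counts) by index set (horizontal axis, 8 libraries each). Points are single testes coloured by group and lines are medians; all 8 points of set A lie above every point of sets B, C and D.

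In the PRM1-high testes the highest list medians belonged to genes for packing sperm DNA (0.54 on the log2 scale), accessory structures of the tail (0.45), haploid kinases and proteostasis (0.43) and round spermatid factors (0.29). Acrosome and axoneme genes were close to level, and Leydig cell and Sertoli cell genes had negative medians of -0.40 and -0.18. Because PRM1 in these same libraries chose the groups, the log2 folds between them carry no test. A log2 fold is given with its standard error from edgeR's quasi-likelihood fit, and the levels of genes other than PRM1 are CPM scaled by TMM (trimmed mean of M values). Over the 11624 genes other than PRM1 tested, 5176 had a positive fold and the median fold was -0.04. With scaling by total gene counts alone, the median over all genes moved to -0.14, so every fold then sits about 0.1 lower.

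Among 10 genes for protamines, transition proteins and spermatid histones other than PRM1, 9 were higher in the PRM1-high testes, with a median log2 fold of 0.54. TNP1 (ENSSSCG00000016179) ranged from 6155 to 12506 CPM with a median of 8734 in the PRM1-high testes, and from 2732 to 8055 CPM with a median of 5077 in the PRM1-low testes. The 2 ranges overlapped, and the log2 fold was 0.77 ± 0.20 (SE, n = 8 and 8). TNP2 ran from 2758 to 6862 CPM (median 3702) against 1367 to 3045 CPM (median 2055), a log2 fold of 0.94 ± 0.20. Only a narrow stretch of TNP2 values was common to both groups. PRM2 (protamine 2) ran from 724.9 to 3010.2 CPM (median 1404) against 263.7 to 1042 CPM (median 679), which gave 1.21 ± 0.27 on the log2 scale. TSSK6, a testis-specific kinase needed for the exchange of histones for protamines, was the member of this list whose groups did not overlap. Its lowest, median and highest levels were 331.6, 416.9 and 593.2 CPM in PRM1-high testes and 179.6, 253.6 and 320.5 CPM in PRM1-low testes. The linker histone of elongating spermatids, H1-7, had 485.6 to 901.2 CPM (median 601.7) against 225.9 to 551.8 CPM (median 454.1). HMGB4, a high-mobility-group protein of the male germ line, had 1421 to 2404 CPM (median 1886) against 834 to 1852 CPM (median 1407). CHD5, a chromatin remodeller that acts when histones are removed, had 343.7 to 479.4 CPM (median 429.7) against 97.4 to 547.7 CPM (median 291.6), so the highest value was in a PRM1-low testis. The member with a negative fold was RNF8, a ubiquitin ligase of the histone exchange, at -0.50.

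The same list was higher in the middle than in the PRM1-low testes, where index set does not separate the groups: 9 of 10 folds were positive, with a median of 0.41. TNP1 differed there by 0.59 ± 0.20, TNP2 by 0.78 ± 0.20 and PRM2 by 0.68 ± 0.26 on the log2 scale. Over the 23 ranked testes with index set as a term, the slopes on PRM1 were 1.13 ± 0.17 for TNP1, 1.04 ± 0.22 for TNP2 and 1.15 ± 0.28 for PRM2. A slope of 1 is a change in proportion to PRM1 CPM by total gene counts. The genes are fitted with TMM scaling, and fitted in that way PRM1 itself had a slope of 1.19 ± 0.10. Leaving out both the testis with the most PRM1 and the one with the least (Low AS on the control diet, replicate 5) moved the list's median fold between the 2 groups to 0.40.

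**Figure D2:**
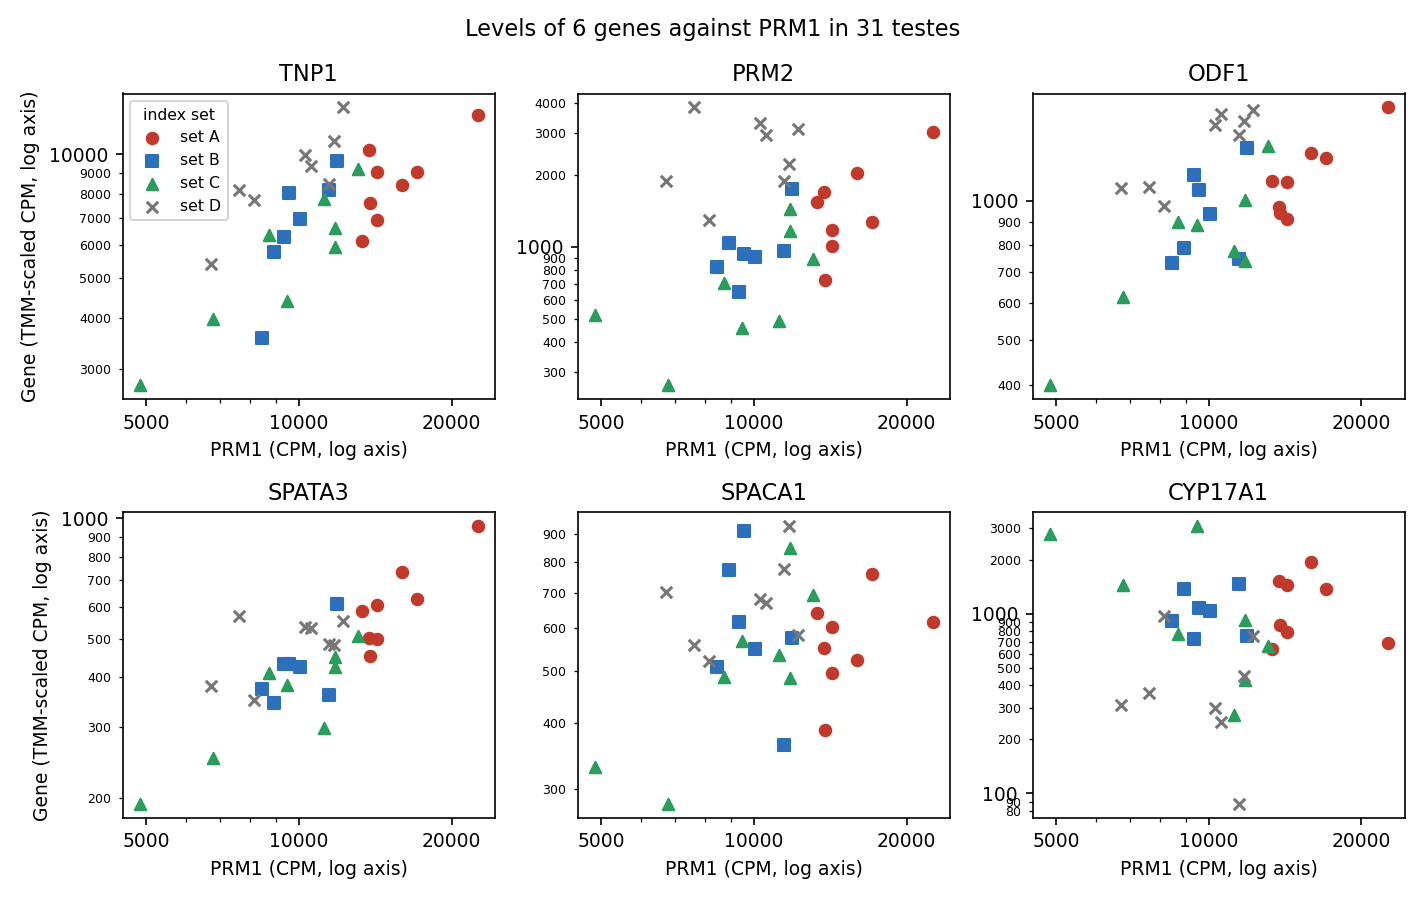
TMM-scaled CPM of 6 genes (vertical axes, log scale) against PRM1 CPM (horizontal axes, log scale) in 31 testes, with markers for the index set. TNP1, PRM2, ODF1 and SPATA3 climb with PRM1 in sets A to C, with slopes of 1.13, 1.15, 0.92 and 0.95 with index set as a term. SPACA1 scatters widely. CYP17A1 has a slope of -1.16 with index set as a term, and slopes of -0.30, 0.02 and -1.70 in sets A, B and C fitted apart.

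The fibrous sheath and the outer dense fibres surround the axoneme of the sperm tail, and their proteins are made late in spermatid development. All 14 genes tested of this group had a positive fold between PRM1-high and PRM1-low testes, with a median of 0.45, and no member separated the groups without overlap. OAZ3, the antizyme of haploid germ cells, ran from 2660.2 to 4359 CPM (median 3571) against 1367 to 3578 CPM (median 2232), a log2 fold of 0.51 ± 0.18. For AKAP4, the main scaffold protein of the fibrous sheath, the levels were 2160.3 to 3422 CPM (median 2608) against 911 to 2638 CPM (median 1728). ODF1 had 913 to 1589 CPM (median 1099) against 399.1 to 1134 CPM (median 838). ODF2 had 1766 to 3025 CPM (median 2092) against 1072 to 1966 CPM (median 1428). ODF1 and ODF2 encode outer dense fibre proteins, and their folds were 0.48 ± 0.17 and 0.49 ± 0.15. In the middle testes the list was higher than in the same PRM1-low testes for 14 of 14 genes, with a median of 0.26. The slopes with index set as a term were positive for all 14, with a median of 0.81. Without the testes with the most and the least PRM1, the median fold between the PRM1-high and PRM1-low groups was 0.28, with 13 of 14 positive.

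Haploid kinases and proteins of the ubiquitin and folding machinery behaved similarly between the groups, with 14 of 18 folds positive and a median of 0.43. SPEM2, a relative of the spermatid maturation protein SPEM1, had 273.9, 343.7 and 520.4 CPM as lowest, median and highest level in PRM1-high testes and 94.0, 200.1 and 264.2 CPM in PRM1-low testes. Those ranges did not overlap. TSKS, a substrate of the testis-specific kinases, had 484.0 to 886.1 CPM (median 617.3) against 232.8 to 532.0 CPM (median 462.0). In the middle against the PRM1-low testes 16 of 18 were higher, with a median of 0.28, and with index set as a term 14 of 18 slopes were positive, with a median of 0.80. Without the testes with the most and the least PRM1 the median fold between the chosen groups was 0.28.

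Genes for round spermatid factors were higher for 21 of 26 members, with a median log2 fold of 0.29. SPATA3, a spermatogenesis-associated gene of little known function, had 451.7, 597.0 and 956.7 CPM as lowest, median and highest level against 193.1, 379.0 and 433.0 CPM, with no overlap. CCIN, which encodes the calicin of the sperm head cytoskeleton, had 685.8 to 1097 CPM (median 898.2) against 361.7 to 924.9 CPM (median 609.5). The list was higher in the middle than in the PRM1-low testes for 23 of 26 genes, and all 26 slopes with index set as a term were positive, with a median of 0.76. Without the testes with the most and the least PRM1 the list's median fold was 0.16.

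The acrosome is the enzyme-filled vesicle over the sperm nucleus, and it forms in round spermatids, before the nucleus condenses. Its 24 genes had a median log2 fold of 0.05 between the PRM1-high and PRM1-low testes, with 19 positive. This sign depended on the scaling: by total gene counts the median was -0.04, with 11 of 24 positive, when the median over all genes was -0.14. Without the testes with the most and the least PRM1 it was 0.01, with 12 of 24 positive. ACRBP, the binding partner of proacrosin, had 1209 to 1866 CPM (median 1490) against 1075 to 1602 CPM (median 1388). SPACA1, a protein of the acrosomal membrane, had 387.0 to 757.9 CPM (median 577.8) against 281.7 to 913.9 CPM (median 537.9), a log2 fold of 0.03 ± 0.20. The highest SPACA1 level was thus in a PRM1-low testis. In the middle against the PRM1-low testes 21 of 23 folds were positive, with a median of 0.12. With index set as a term all 24 slopes were positive, with a median of 0.58, and SPACA1 had a slope of 0.64 ± 0.23. Fitted apart by least squares, however, SPACA1 had slopes of 0.42 in set A (r = 0.37), -1.04 in set B (r = -0.44) and 0.88 in set C (r = 0.82). Whether the slopes differ between the sets was not tested.

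Axoneme genes and tektins, which build and stiffen the moving core of the flagellum, had a median log2 fold of 0.04, with 19 of 31 positive. Scaling by total gene counts turned that median to -0.05. TPPP2, a tubulin polymerization-promoting protein, was the member with the highest fold, 0.58 ± 0.18, at 1821 to 2762 CPM (median 2136) against 713 to 2142 CPM (median 1409). TEKT2 (tektin 2) had 564.6 to 787.6 CPM (median 634.6) against 435.4 to 685.9 CPM (median 579.3). In the middle against the PRM1-low testes 24 of 32 were higher, with a median of 0.08. With index set as a term, 28 of 32 slopes were positive, with a median of 0.26. Sperm ion channel and motility signalling genes had a median fold of 0.04, with 9 of 16 positive, and by total gene counts the median was -0.06. In the middle against the PRM1-low testes 13 of 16 were higher (median 0.11), and 13 of 16 slopes with index set as a term were positive (median 0.27). CATSPERG, an accessory subunit of the CatSper calcium channel, had 252.0 to 395.7 CPM (median 370.1) against 219.4 to 377.5 CPM (median 262.3).

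Of 9 genes for sperm energy supply, 7 were higher, with a median log2 fold of 0.12. The median was 0.19 in the middle against the PRM1-low testes (8 of 9 positive), and the median slope with index set as a term was 0.32 (7 of 9 positive). The sperm form of glyceraldehyde-3-phosphate dehydrogenase, GAPDHS, had 563.3 to 977.2 CPM (median 706.8) against 267.7 to 671.7 CPM (median 509.6), a fold of 0.55 ± 0.16. PHKG2, the catalytic subunit of phosphorylase kinase in liver and testis, had 846.1 to 1270 CPM (median 1026) against 607.9 to 866.3 CPM (median 750.8), with overlap only at the edges. LDHC, the lactate dehydrogenase of germ cells, had 292.1 to 447.9 CPM (median 337.7) against 240.9 to 477.4 CPM (median 337.1). The medians of LDHC, which is already made in spermatocytes, were nearly equal.

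**Figure D3:**
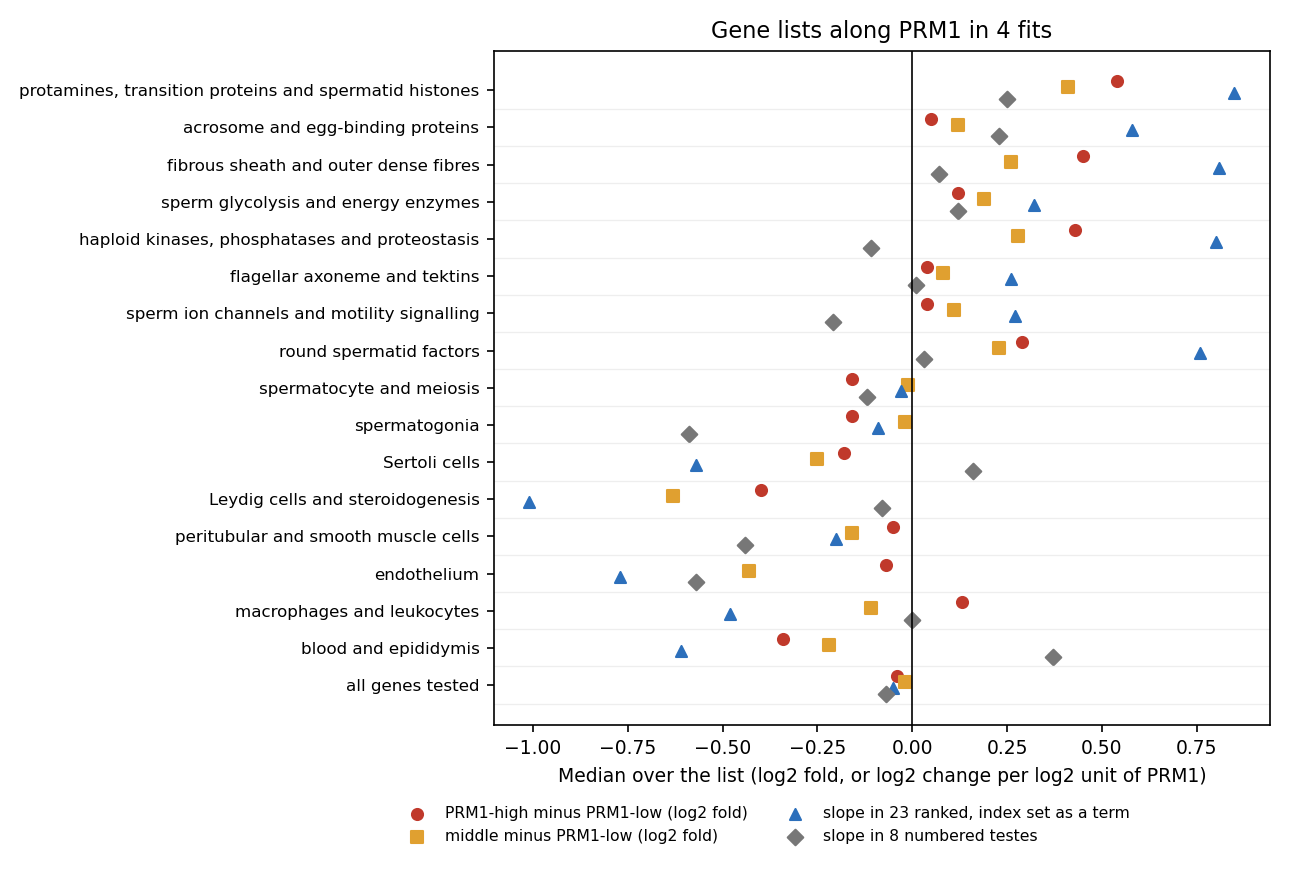
Median over each gene list (horizontal axis, log2 fold or log2 change per log2 unit of PRM1) in 4 fits, marked by symbol; PRM1 is left out. Spermatid lists lie right of 0 in the PRM1-high against PRM1-low fit (0.54 for protamines and transition proteins) and Leydig genes lie left of 0 (-0.40), while the numbered testes (grey) have spermatid medians between -0.21 and 0.25.

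Earlier germ cells followed a different course. Of 29 spermatocyte and meiosis genes, 6 had a positive fold, and the median was -0.16. SYCP2, of the axial element of the synaptonemal complex, had 152.0 to 236.2 CPM (median 182.5) in PRM1-high against 164.8 to 309.6 CPM (median 239.8) in PRM1-low testes, a log2 fold of -0.35 ± 0.13. SYCP3, its partner in the axial element, had 325.3 to 496.4 CPM (median 366.7) against 378.1 to 628.5 CPM (median 423.7). SYCE1, of the central element, went the other way, at 185.2 to 326.6 CPM (median 227.2) against 129.8 to 233.0 CPM (median 199.9). All 3 overlapped between the groups. The spermatocyte list was level in the comparison that index set does not separate: 14 of 29 genes were higher in the middle than in the PRM1-low testes, with a median of -0.01, and SYCP2 differed there by 0.00 ± 0.17. Of 11 spermatogonial genes tested, 3 were higher, with a median of -0.16. That median was -0.02 in the middle against the PRM1-low testes (5 of 11 positive) and -0.09 as a slope with index set as a term (3 of 12 positive). KIT, the receptor of differentiating spermatogonia, had 6.68 to 15.6 CPM (median 13.7) against 10.6 to 18.1 CPM (median 13.6). The adhesion molecule EPCAM had 1.38 to 29.8 CPM (median 12.9) against 4.25 to 67.4 CPM (median 31.3), and NANOS2, a marker of stem spermatogonia, had no count in the 16 testes.

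Among somatic lists of more than 3 tested genes, Leydig and Sertoli cells had the clearer negative medians between PRM1-high and PRM1-low testes. The summed level of 18 Leydig cell and steroidogenic genes was 2187 to 6683 CPM (median 3512) in PRM1-high, 1640.2 to 5014 CPM (median 2835) in middle and 2233 to 8843 CPM (median 4032) in PRM1-low testes. Of 14 such genes tested, 2 had a positive fold between PRM1-high and PRM1-low testes, with a median of -0.40. CYP17A1, the lyase that makes androgens and 16-androstene steroids, had 636.8 to 1955 CPM (median 1121) against 725.8 to 3095 CPM (median 1230), a log2 fold of -0.39 ± 0.30 with wide overlap. INSL3, the peptide hormone of Leydig cells, had 574.1 to 2391 CPM (median 864.8) against 408.9 to 2602 CPM (median 1091). CYP11A1, which cleaves the cholesterol side chain, had 90.0 to 299.9 CPM (median 186.4) against 99.2 to 512.8 CPM (median 204.2). In the middle against the PRM1-low testes none of the 14 was higher and the median was -0.63, with CYP17A1 at -0.94 ± 0.35. The fold between PRM1-high and PRM1-low testes rested largely on single libraries: without the testes with the most and the least PRM1, the median of the Leydig list was -0.11, with 4 of 14 positive. With index set as a term none of 17 slopes was positive, with a median of -1.01, and without both those testes the median slope was -0.60, with none of 16 positive. Fitted apart by least squares, CYP17A1 had slopes of -0.30 in set A, 0.02 in set B and -1.70 in set C. Those of INSL3 were -0.52, 0.04 and -1.48, and those of CYP11A1 -0.37, 0.07 and -1.71. HSD17B3, of the same list, had -1.47, -0.87 and -0.30. Whether these slopes differ between the sets was not tested.

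Sertoli cell genes, 18 in all, summed to 1848 to 4314 CPM (median 2836) in PRM1-high and 1915 to 5491 CPM (median 3306) in PRM1-low testes, with 4 of 14 folds positive and a median of -0.18. CLDN11, the claudin of the blood-testis barrier, had 68.9 to 239.1 CPM (median 122.3) against 101.1 to 313.1 CPM (median 218.5), a log2 fold of -0.52 ± 0.27. CLU (clusterin) had 1311 to 3219.7 CPM (median 1985) against 1375 to 4206 CPM (median 2375). The Sertoli median was -0.25 in the middle against the PRM1-low testes, -0.57 per log2 unit of PRM1 with index set as a term, and -0.10 between the PRM1-high and PRM1-low groups without the testes with the most and the least PRM1. Peritubular genes had a median fold of -0.05, -0.16 in the middle against the PRM1-low testes and a median slope of -0.20 with index set as a term, with ACTA2 at 34.4 to 56.6 CPM (median 47.4) against 37.1 to 56.2 CPM (median 46.1). Endothelial genes had a median fold of -0.07, near that of all genes, against -0.43 for the middle against the PRM1-low testes and a median slope of -0.77 with index set as a term. The levels of the endothelial adhesion molecule PECAM1 were 11.5 to 24.3 CPM (median 16.7) against 6.01 to 42.6 CPM (median 18.1). Macrophage and leukocyte genes had a median of 0.13, with 4 of 6 positive, but of -0.11 in the middle against the PRM1-low testes (2 of 6) and -0.48 as a slope with index set as a term (1 of 6). The macrophage receptor MRC1 had 21.2 to 73.8 CPM (median 28.1) against 24.5 to 77.0 CPM (median 33.1). The blood and epididymis list had only 3 genes tested, with 0 of 3 folds positive and a median of -0.34. Its median was -0.22 in the middle against the PRM1-low testes and -0.61 as a slope with index set as a term. The beta-globin gene HBB, a sign of blood, had 14.4 to 98.3 CPM (median 30.2) against 26.2 to 73.1 CPM (median 42.9). The epididymal genes CRISP1 and RNASE10 had no count in the 16 testes. The part of these other cell types in the germ cell folds was not tested.

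Of the 11624 genes, 26 (0.224%) lay higher in every PRM1-high testis than in any PRM1-low testis, and 3 (0.0258%) lay lower. The groups were chosen on PRM1, so these counts are a description. Among the 26, 18 carried a gene symbol and 3 were on the germ cell lists, namely TSSK6, SPEM2 and SPATA3. Their signs in the middle against the PRM1-low testes and in the slopes over the ranked testes use the same libraries and are not separate evidence. The largest fold among those with a symbol and a mean of at least 10 CPM belonged to DOK4, an adaptor protein of receptor tyrosine kinase signalling, at 25.2 to 44.4 CPM (median 32.0) against 11.3 to 23.7 CPM (median 15.7), or 1.07 ± 0.15 on the log2 scale. SPATC1, which encodes speriolin, a centrosomal protein of sperm, had 146.1 to 317.7 CPM (median 169.6) against 38.6 to 130.1 CPM (median 92.4). MAP1LC3A, of the LC3 family of autophagosome proteins, had 86.9 to 208.4 CPM (median 119.3) against 54.6 to 85.7 CPM (median 71.6). EEF1D, a subunit of a translation elongation factor, had 211.9 to 352.4 CPM (median 265.4) against 114.7 to 210.5 CPM (median 181.4). ANKRD2, the palmitoyltransferase ZDHHC18, ATOSB, GDAP1L1 and the adaptor LAT2 had log2 folds from 0.74 to 1.02. Counting TSSK6, SPEM2 and SPATA3, these are the 12 with the largest folds among the genes with a symbol and that mean level, and other genes with a symbol had smaller folds or lower levels. The 3 genes that lay lower were PTDSS1, a phosphatidylserine synthase, NAP1L1, a histone chaperone, and OSBPL9, an oxysterol-binding protein. PTDSS1 reached at most 30.5 CPM (median 23.7) in PRM1-high testes and had 30.9 to 44.5 CPM (median 37.3) in PRM1-low testes. NAP1L1 had 224.8 to 257.4 CPM (median 240.7) against 260.5 to 320.8 CPM (median 289.8), and OSBPL9 had 203.8 to 221.1 CPM (median 212.2) against 225.8 to 259.5 CPM (median 238.4). NAP1L1 and OSBPL9 differed little between the middle and the PRM1-low testes, by -0.02 ± 0.10 and -0.06 ± 0.11 on the log2 scale, against -0.28 ± 0.09 and -0.18 ± 0.08 between the chosen groups. Between the middle and the PRM1-low testes 3 of 11706 genes (0.0256%) lay higher without overlap and 0 (0%) lay lower, and 1 of the 26 was among the 3.

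**Figure D4:**
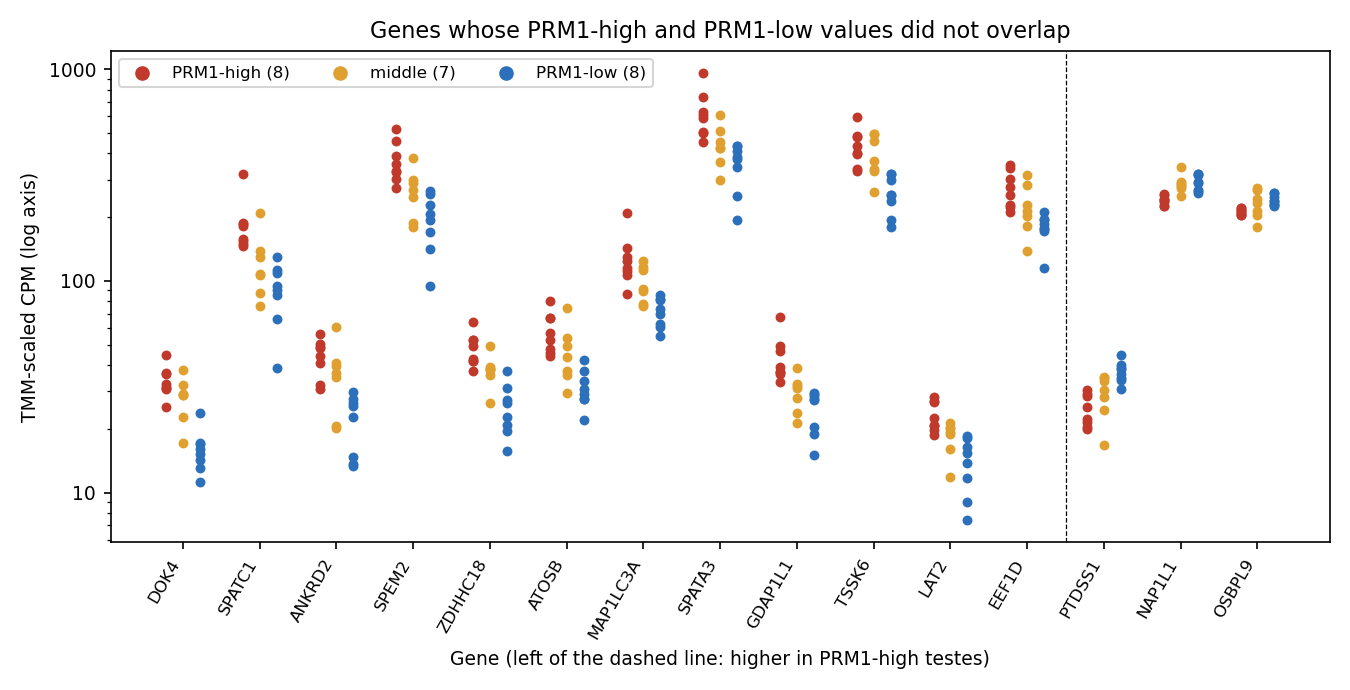
TMM-scaled CPM (vertical axis, log scale) of 15 genes whose PRM1-high and PRM1-low levels did not overlap, with PRM1-high, middle and PRM1-low testes as coloured points. Left of the dashed line are, of the 26 genes that lay higher, the 12 with the largest folds among those with a symbol and a mean of at least 10 CPM, and right of it the 3 that lay lower. The middle testes overlap the other groups, with OSBPL9 spread over 179.0 to 275.7 CPM.

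Ranked by likeness to PRM1, as the Pearson correlation of log2 CPM over the 23 ranked testes, the highest genes were ENSSSCG00000011626 and ENSSSCG00000012231, both at r = 0.93, and, with a symbol, SPATA3 and PHKG2 at 0.90 and C13orf46 and C11orf42 at 0.89. The testes share library sets and the ranking itself, so these correlations are descriptive. ENSSSCG00000011626 had 224.1 to 475.9 CPM (median 285.7) in PRM1-high and 90.0 to 210.0 CPM (median 170.7) in PRM1-low testes. In the 8 numbered testes, which played no part in the choice of groups, ENSSSCG00000011626 again had r = 0.93 and ENSSSCG00000012231 r = 0.83. There SPATA3 had r = 0.53, C11orf42 0.44, C13orf46 0.43 and PHKG2 0.25.

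The numbered testes allow a test on data that the ranking did not use. In them PRM1 spanned 6710 to 12229 CPM, a narrower range than over the ranked testes, and all libraries were of index set D. By edgeR's quasi-likelihood test with Benjamini-Hochberg adjustment, 0 of 14604 genes (0%) changed along PRM1 at an adjusted p under 0.05, and the smallest adjusted p was 0.13. At an unadjusted p under 0.05 there were 1610 genes, 753 rising and 857 falling. DESeq2, fitted to 17425 genes of the same libraries, called 129 rising and 25 falling. Limma voom called 0 of 14604. TNP1 had a slope of 1.01 ± 0.26 (adjusted p = 0.39 by edgeR and 0.0138 by DESeq2). ODF1 had a slope of 0.76 ± 0.22 (adjusted p = 0.39 by edgeR and 0.0391 by DESeq2). These 2 estimates lie close to those over the ranked testes with index set as a term, 1.13 and 0.92.

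Some other listed members also kept their slopes in the numbered testes. ODF2 had 0.63 ± 0.24 and SPATA19 0.75 ± 0.31 there, against 0.63 and 0.75 over the ranked testes with index set as a term. Neither passed edgeR's test after adjustment. By DESeq2, SMCP of the sheath and dense fibre list had a slope of 1.25 (adjusted p = 0.0027), and its slope over the ranked testes was not set beside it. By edgeR's quasi-likelihood test 0 genes of that list passed, with a smallest adjusted p of 0.368. Further members did not repeat their slopes in the numbered testes. PRM2 had a slope of 0.22 ± 0.51, AKAP4 0.05 ± 0.26, TSSK6 -0.50 ± 0.32 and CHD5 -1.06 ± 0.53 there, and none passed the test. TNP2 (0.41 ± 0.30) and H1-7 (0.28 ± 0.22) had smaller slopes there than over the ranked testes with index set as a term (1.04 and 0.87). The standard errors leave wide intervals. By list, the numbered testes had positive slopes for 6 of 10 protamine and transition protein genes (median 0.25), 9 of 14 sheath and dense fibre genes (median 0.07), 18 of 24 acrosome genes (median 0.23), 13 of 26 round spermatid genes (median 0.03) and 7 of 18 haploid kinase genes (median -0.11). Axoneme genes had 16 of 32 positive (median 0.01), ion channel genes 6 of 16 (median -0.21) and energy genes 5 of 9 (median 0.12). Over all 14604 genes, 6602 slopes were positive, with a median of -0.07. Leydig genes had 7 of 16 positive slopes (median -0.08), Sertoli genes 10 of 17 (median 0.16) and spermatogonial genes 3 of 13 (median -0.59). Of the 26 genes that lay higher in every PRM1-high testis, 21 had a positive slope in the numbered testes, against 6602 of 14604 over all genes. By edgeR's test 3 of the 26 reached an unadjusted p under 0.05, a share near that over all genes (1610 of 14604). Of the 3 genes that lay lower, 2 also had a positive slope there, NAP1L1 at 0.19 ± 0.19 and OSBPL9 at 0.00 ± 0.20. Fitted separately in each of the 4 index sets, 1229 of 11520 genes (10.7%) had a positive slope in all 4 and 1769 (15.4%) a negative slope in all 4. Positive in all 4 were 9 of 14 sheath and dense fibre genes, 5 of 10 protamine and transition protein genes, 9 of 26 round spermatid genes, 3 of 9 energy genes, 4 of 18 haploid kinase genes, 4 of 23 acrosome genes, 5 of 31 axoneme genes and 2 of 16 ion channel genes. So were 2 of 29 spermatocyte and 1 of 6 macrophage and leukocyte genes. Negative in all 4 were 8 of 29 spermatocyte, 5 of 14 Sertoli, 2 of 14 Leydig, 1 of 11 spermatogonial and 1 of 14 peritubular genes. The same held for 2 of 18 haploid kinase, 1 of 9 energy, 1 of 6 macrophage and leukocyte and 1 of 3 blood and epididymis genes. The Leydig, spermatogonial, peritubular, haploid kinase and energy shares lie below the 15.4% over all genes. Sets A, B and C were part of the ranking, so of each such count only the sign in set D is new data.

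Whether the pigs behind the groups differed by label was tested directly, because no label entered the rule. The tests of AS group, diet, carcass weight and androstenone take each pig as independent. The 8 PRM1-high pigs came from 4 sows and the 8 PRM1-low pigs from 6, however, and pigs of the same sow are not independent. For the AS group, 5 of 8 PRM1-high (62.5%) and 4 of 7 PRM1-low pigs with a group (57.1%) were High AS, which is no detectable difference (Fisher's exact test, 2-sided p = 1). For diet, 62.5% of PRM1-high and 37.5% of PRM1-low pigs received chicory (Fisher's exact test, 2-sided p = 0.619, adjusted p = 0.907 over 21 tests of labels, depth and read shares). Groups of 8 leave such shares wide, so differences of this size could not be resolved. Mean PRM1 over the ranked testes was 15398 ± 5497 CPM in High AS chicory (SD, n = 4), 11108 ± 3302 CPM in High AS control (n = 7), 12190 ± 1979 CPM in Low AS chicory (n = 6) and 10251 ± 3650.4 CPM in Low AS control pigs (n = 5). The spreads of these 4 groups overlap.

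Carcass weight was 82.7 to 99.5 kg, with a mean of 90.7 ± 6.17 kg (SD, n = 6), for PRM1-high pigs and 83.1 to 98.4 kg, with a mean of 91.3 ± 5.54 kg (n = 7), for PRM1-low pigs. The difference of -0.55 kg was far smaller than the spread (exact permutation test, 2-sided p = 0.868, adjusted p = 0.960). Over the ranked testes with a weight, carcass weight and log2 PRM1 had a Pearson r of -0.07 and a Spearman rho of -0.02 (n = 20; permutation p = 0.777 and 0.927), and r was -0.04 without the 2 testes farthest from the median PRM1. Within index set A r was 0.26 (n = 6) and within sets B and C it was -0.35 (n = 14), neither with a p under 0.05. Without the 2 testes farthest from the median PRM1 these became -0.98 over the 4 testes left in set A and -0.03 in sets B and C, so both rested on those testes. In the numbered testes r was 0.16 and rho 0.14 (n = 8; exact permutation p = 0.749 and 0.752).

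Androstenone, the steroid of boar taint that the testis makes, was 0.79 to 7.77 mg/kg (median 1.87) in PRM1-high pigs and 0 to 2.55 mg/kg (median 1.04) in PRM1-low pigs. The means were 2.81 ± 2.59 (SD, n = 8) and 1.00 ± 0.796 mg/kg (n = 7). On the scale log2(mg/kg + 0.5) the difference was 1.00 (exact permutation test, 2-sided p = 0.0532, adjusted p = 0.558). It took the opposite sign between the middle and the PRM1-low pigs, at -0.52 (exact permutation p = 0.27). Along PRM1 r was 0.25 and rho 0.30 over the ranked testes (n = 22; permutation p = 0.255 and 0.172, both 0.719 when adjusted), with r = -0.03 within index set A (n = 8) and -0.39 within sets B and C (n = 14). Without the 2 testes farthest from the median PRM1 these were 0.15 and -0.10. In the numbered testes r was 0.33 and rho 0.29 (n = 8; exact permutation p = 0.41 and 0.501).

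The breeding value of the sire for androstenone differed between the groups as chosen. It was 0.14 to 0.36 in PRM1-high pigs (mean 0.22 ± 0.0725, SD, n = 8) and -0.49 to 0.11 in PRM1-low pigs (mean -0.149 ± 0.228, n = 8), with no overlap. The difference was 0.37 (exact permutation test, 2-sided p = 0.000155, the smallest this design can give, adjusted p = 0.00326). Offspring of a sow mostly carry the same value, however, and are not independent. With the mean for each sow the means were 0.24 for 4 sows and -0.10 for 6 (difference 0.34, exact permutation p = 0.0095). The call was lost when the testes were ranked in another way: the difference was 0.25 (exact permutation p = 0.0611) with ranking by TMM-scaled PRM1 CPM and 0.26 (exact permutation p = 0.0567) with ranking by the other protamine list members. Middle and PRM1-low pigs differed by -0.05 (exact permutation p = 0.693). As the PRM1-high testes are also index set A, sire breeding value, sow, index set and PRM1 level cannot be told apart here.

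**Figure D5:**
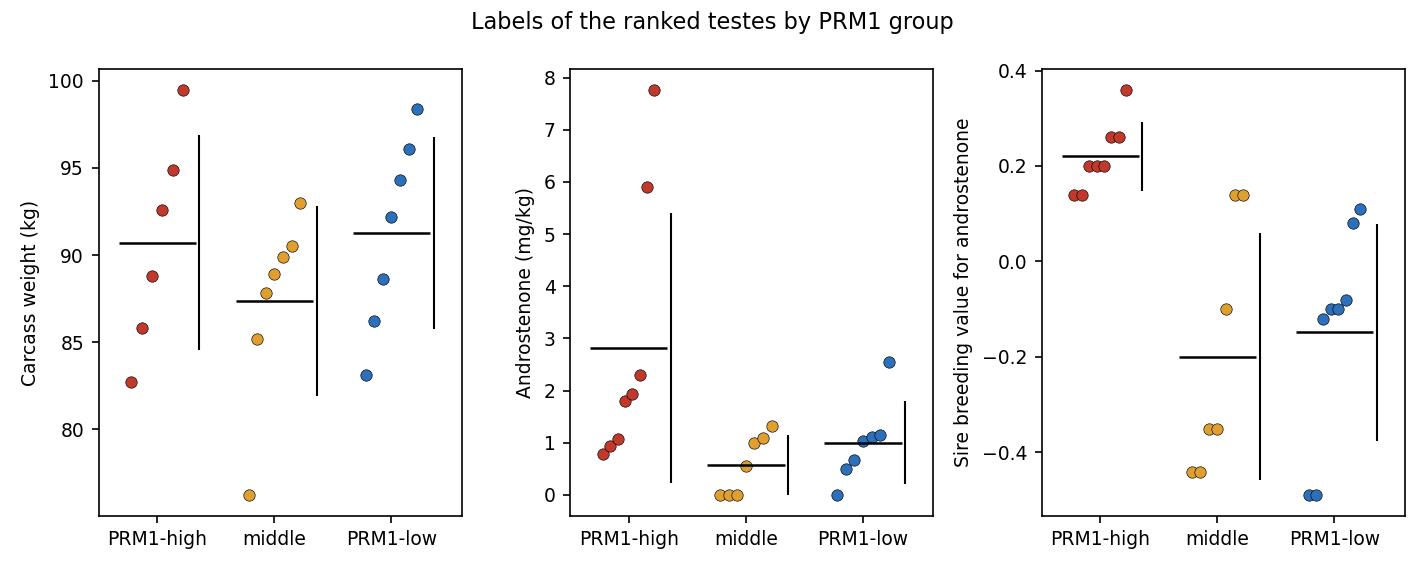
Carcass weight (kg), androstenone (mg/kg) and sire breeding value (vertical axes) of the PRM1-high, middle and PRM1-low pigs. Points are pigs, horizontal lines means and vertical lines ± 1 SD; the sire breeding values of PRM1-high pigs, 0.14 to 0.36, all exceed those of PRM1-low pigs, which reach 0.11.

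No difference in depth or read assignment was detected between the groups. Total gene counts had medians of 3572764 in PRM1-high and 3488764 in PRM1-low libraries (exact permutation test on log2 totals, p = 0.619). The share of reads in no gene averaged 30.8% and 29.3% (exact permutation p = 0.515), the unaligned share 9.70% and 9.04% (exact permutation p = 0.139) and the share aligned more than once 5.73% and 5.81% (exact permutation p = 0.67). Reads aligned more than once are not in the gene counts, so levels of genes with near-identical copies, such as the TSSK family, are uncertain.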

How the data were processed

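Testis messenger RNA was sequenced from 32 pigs with a stranded kit, per the labels' protocols. The deposited files hold raw counts of reads per gene for each library, made by the authors. The submitters' processing notes name HTSeq 0.6.0, SAMtools 1.3.1, STAR, Trimmomatic 0.33 and cutadapt 1.8.1. Neither the genome build nor the strand setting of the counting is stated, and reads of a gene and of an overlapping or antisense partner may be mixed. The 5 rows that name no gene were left out; reads in no gene were 20.6% to 39.6% of a library. Of 25322 gene identifiers, 11804 were paired with a symbol from a reference gene table.

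The groups were formed by PRM1 CPM by total gene counts. Counts were fitted with edgeR 4.0.16 (R 4.3.3), with filterByExpr, TMM factors over all 32 libraries (0.884 to 1.18) and quasi-likelihood tests; limma 3.58.1 (voom) and DESeq2 1.42.0 were alternatives. The code was tested on simulated data. Slopes use log2 PRM1 CPM. Labels were compared by Fisher's exact test or exact permutation, or by 100000 resamples for correlations with n of 10 or more, and the 21 p-values were adjusted together. Correlations and log levels use a pseudocount of 0.5 CPM.

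The named genes were the 6 with the highest mean CPM in each list plus non-overlapping members, the 12 genes with a symbol, no overlap and a mean of at least 10 CPM with the largest folds each way, and the 8 most like PRM1. RNF8, SMCP and the DESeq2 values of single genes were added after their values were seen. The members and lists were chosen with earlier results of these data known. Replicate numbers follow accession order and pair no samples.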

Additional observations from a re-analysis of the deposited data

Results flagged for a closer look

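The lowest and highest level of each gene shown, of PRM1 and of 3 labels was set against its group with Dixon's gap ratio, in 98 groups. Chance alone flags about 1 in 20 groups, and 11 stood out. The PRM1-high testis of the High AS chicory pig replicate 7 accounts for 7 of them, each time as the highest of the 8: PRM1 at 22542 CPM, TNP2 at 6862 CPM, ODF2 at 3025 CPM, TSKS at 886.1 CPM, SPATC1 at 317.7 CPM, MAP1LC3A at 208.4 CPM and ENSSSCG00000011626 at 475.9 CPM. These genes are correlated with PRM1, on which the testes were ranked, so the 7 are not independent. Among the PRM1-high testes, CATSPERG was far lowest at 252.0 CPM in the High AS chicory pig replicate 4, and HBB far highest at 98.3 CPM in the Low AS control pig replicate 6. Among the PRM1-low testes, SYCP3 was far highest at 628.5 CPM in the High AS control pig replicate 7, and EEF1D far lowest at 114.7 CPM in the High AS control pig replicate 9.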

How the results depend on the processing

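The choice of groups decided the signs of small label differences. With 11 against 11 testes, the High AS share differed by -14.6 percentage points and carcass weight by 0.58 kg. With the lowest PRM1 library kept, carcass weight differed by 0.59 kg, log2 total counts by 0.0403 and androstenone by 1.09 (exact permutation p = 0.0345). Ranked by TMM-scaled CPM, carcass weight differed by 1.27 kg and sire breeding value by 0.25 (exact permutation p = 0.0611). Ranked by the other protamine list members, which shared 5 of 8 high and 6 of 8 low testes, they differed by 2.22 kg and 0.26 (exact permutation p = 0.0567). Between middle and PRM1-low testes the High AS share differed by -28.6 points, androstenone by -0.52, sire value by -0.0513 and log2 totals by 0.0187. Within index set A r along PRM1 was 0.26 for carcass weight and -0.031 for androstenone, and -0.39 for androstenone within sets B and C.

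Genes without overlap numbered 26 higher and 3 lower of 11624 in the main comparison, and 66 and 52 with 6 against 6. They numbered 3 and 0 of 11706 for middle against PRM1-low, and 30 and 8 of 11760 without the highest and lowest testis. Smaller groups lie apart more easily, so counts from groups of unlike size cannot be compared. Lower genes numbered 6 with total-count scaling and 6 with the lowest library kept. Total-count scaling kept 17 of the 26 and 0 of the 3, and DESeq2 size factors 17 and 2. AS group and diet as terms change no raw overlap, so that setting gives no count. In the numbered testes DESeq2 called 129 rising and 25 falling of 17425 genes. Leaving out single libraries in edgeR's fit gave 0 to 1 rising and 0 to 1 falling. AKAP4's slope there was -0.0994 with total-count scaling and -0.0216 with lane as a term, and leaving out single libraries moved it from -0.0200 to 0.201 and PRM2's from -0.173 to 0.836. The cause was not tested. No paired analysis was possible because replicate numbers follow accession order and the PRM1-high and PRM1-low groups share no sow. At 2268778 to 5993637 gene counts, genes of a few CPM rest on few reads.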

Other observations

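The testis set aside by the rule came from a Low AS pig on chicory (replicate 1). It had TMM-scaled levels of 743.9 CPM for TNP1 and 743.4 CPM for PRM1 (757.9 CPM by total gene counts). Its summed Sertoli level was 8339 CPM, above the highest of the 23 ranked testes (5491 CPM), and its summed level of 24 acrosome genes was 3051 CPM, below their lowest (5747 CPM). Its spermatocyte genes summed to 2307 CPM, against 2596 to 3816 CPM over the ranked testes.

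Across 7568 of 8044 tested genes with a symbol and a known gene span (94.1%), the fold between PRM1-high and PRM1-low testes had a Spearman rho of -0.16 with the span in the Sscrofa11.1 gene table, and the fold between middle and PRM1-low testes -0.11. These are descriptions across genes, which are not independent replicates, and the build of the counts is not known.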
